A study of Callithrix jacchus with 4 samples.

Results

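Oligodendrocyte precursor cells (OPC) of the marmoset primary visual cortex (V1) were examined 7 days after a focal ischemic stroke. All nuclei that the deposited annotation calls OPC were taken, 1307 of the 38147 nuclei in 4 single-nuclei RNA sequencing libraries. The injured cohort gave 1136 OPC nuclei from 3 adult marmosets, each with its own library, after unilateral V1 injections of the vasoconstrictor peptide endothelin-1. These held 284, 451 and 401 OPC nuclei in injured replicates 1, 2 and 3, and the dissected gray matter included the ischemic core and the penumbra. The control cohort gave 171 OPC nuclei from V1 of 3 adult marmosets without injury, combined into a single library, which leaves variation among control animals unknown. The cohorts also differed in how they were handled, since injured nuclei were isolated on a sucrose cushion and sequenced on an Illumina instrument at one facility, and control nuclei were sorted by flow cytometry and sequenced on an MGI instrument at another. Injury and these differences cannot be told apart in any value that sets injured against control.

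OPC are the dividing glial cells that give rise to myelinating oligodendrocytes throughout life. They are kept in the precursor state in part by platelet-derived growth factor acting on *PDGFRA*, they carry glutamate receptors and ion channels that sense neuronal activity, and they surround themselves with chondroitin sulfate proteoglycans. After injury they are known to proliferate, to move toward the lesion and to add matrix to the glial scar, and they can respond to interferons and present antigen.

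The authors assigned the OPC label to clusters by *PDGFRA*, *PCDH15* and *MEGF11*. The nuclei carried these markers, which describes the labelled nuclei and is no independent check of the label. *PDGFRA* stood at 544, 651 and 582 CPM (unique molecular identifiers, or UMIs, scaled to 1000000 per library sum, each UMI the tag of 1 captured transcript) in OPC of injured replicates 1, 2 and 3 and at 845 CPM in control OPC. In the other 6 cell types its level was at most 211 CPM, in control endothelial nuclei, and at most 13.1 CPM outside the endothelial class. A UMI of *PDGFRA*, of the protocadherin *PCDH15* or of *MEGF11*, a scavenger-receptor-like membrane protein, was found in 98.6%, 97.8% and 95.5% of injured OPC nuclei and in 98.2% of control OPC nuclei. In microglia, which should lack *PDGFRA*, 1.49% to 2.44% of injured nuclei and 0 of 129 control nuclei had a *PDGFRA* UMI. The injured OPC came from a pair of deposited clusters, 1111 nuclei in cluster 25 and 25 nuclei in cluster 26. In cluster 26, genes of myelinating cells stood higher, with *MBP* (myelin basic protein) at 1772 against 82.2 CPM and *MOBP* at 942 against 70.9 CPM, while *PDGFRA* stood at 535 against 589 CPM.

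Depth separated the cohorts. The OPC sums held 1624098, 1532517 and 2062287 UMIs in the injured libraries and 186916 in the control library, and the median OPC nucleus held 5628, 2912 and 4981 UMIs against 962. One control UMI was thus worth 5.35 CPM, and a gene with no UMI in the 171 control nuclei may still have a share of up to 1.75% of nuclei by a limit of 3 counts, counting error only. Between any pair of libraries 15 to 27 barcodes were shared, of which 1 belonged to OPC in both.

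OPC made up 3.79%, 3.60% and 4.22% of nuclei in the injured libraries, 3.87% ± 0.316 (SD, n = 3), and 1.99% of control nuclei (exact Clopper-Pearson 95% interval 1.70% to 2.30%). Every injured library thus held a larger share than the control library, with no overlap of the intervals, and no test between cohorts was made against a single control library. The order depended on the denominator. Among the 4 glial classes, OPC were 6.73%, 8.79% and 9.81% of injured and 8.48% of control nuclei, so the control value lay inside the injured range. Among OPC and oligodendrocytes alone, OPC were 28.6%, 29.7% and 37.0% of injured nuclei and 13.2% of control nuclei (11.4% to 15.2%). Sorting and isolation can set such shares, and their part was not tested.

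To ask how OPC differed after injury, UMIs were summed per library and the 3 injured sums were compared with the control sum by edgeR's quasi-likelihood test. Of 11470 genes tested, 101 were called (0.881%), 68 higher after injury (0.593%) and 33 lower (0.288%), where a call needed an adjusted p (Benjamini-Hochberg) below 0.05, a fold change past 0.25 on the natural-log scale and detection in 10% or more of the OPC nuclei of at least 1 cohort. Genes called higher included the secreted glycoprotein *SPP1* (osteopontin), the adhesion molecule *CHL1*, the microtubule-binding protein *EML6*, the matrix glycoprotein *TNC* (tenascin-C) and *B2M*, the light chain of MHC class I. Genes called lower included *IGFBP5*, which binds insulin-like growth factors, the endocytic adaptors *HIP1* and *EPN2*, and the cyclin-dependent kinase partner *CABLES1*. *PDGFRA*, *PCDH15* and *MEGF11* were not called. An unadjusted p below 0.05 was found for 2273 genes, and DESeq2 called 228. The number rested strongly on single libraries, with 0 calls without injured replicate 1 (1920 genes at an unadjusted p below 0.05), 1199 without injured replicate 2 and 664 without injured replicate 3. All 101 genes kept their direction in these 3 fits, and all were among the calls without injured replicate 2 and without injured replicate 3. The direction was nearly fixed in advance. In all 101 genes each injured CPM lay on the same side of control, and every fit reused the 1 control library. Over all 11470 genes the log2 fold change had a median of 0.17, and of 0.04 when sums were scaled by library size alone, which called 37 genes higher and 40 lower, so that the share of calls that were higher was 48.1% in place of 67.3%.

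**Figure D1:**
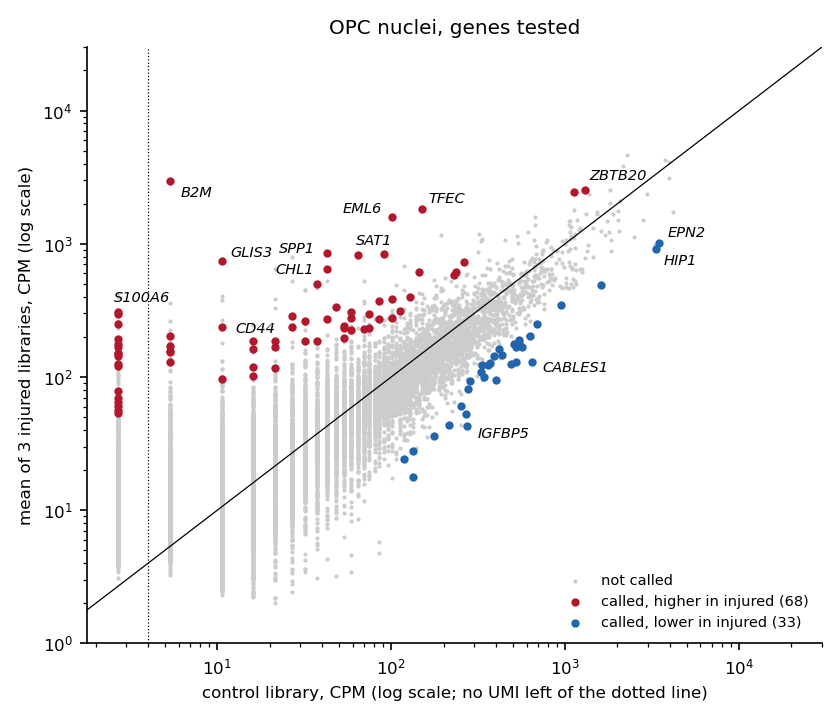
Each point is 1 of 11470 genes, with its level in control OPC on the horizontal axis and the mean of the 3 injured OPC sums on the vertical axis, both in CPM on log scales, and the diagonal marking equal levels. The 68 genes called higher (red) include 17 with no control UMI, drawn left of the dotted line, and the 33 called lower (blue) include the highly expressed *HIP1* and *EPN2*.

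Among genes called higher with more than 3 control UMIs, the 8 with the largest fitted rises were *SPP1*, *EML6*, *CHL1*, *IFI6*, *SAT1*, *TFEC*, *CALR* and *HERC6*. *SPP1* stood at 889, 490 and 1161 CPM in injured replicates 1, 2 and 3 and at 42.8 CPM in control (log2 fold change 4.43 ± 0.68 SE, edgeR Benjamini-Hochberg adjusted p = 0.0403). All 3 injured values were more than 10 times the control value, with injured replicate 2 the lowest. *EML6* stood at 1638, 1314 and 1833 CPM against 101.7 CPM (log2 fold change 4.10 ± 0.33 SE, edgeR adjusted p = 0.00684). *EML6* was among the most abundant of the called genes in injured OPC, and a UMI was found in 87.0%, 68.5% and 82.3% of injured and 9.94% of control OPC nuclei. *CHL1*, an L1-family protein of growing neurites and glia, stood at 691, 377 and 859 CPM against 42.8 CPM (log2 fold change 4.03 ± 0.65 SE, edgeR adjusted p = 0.0466).

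*SAT1*, the enzyme that starts polyamine breakdown, stood at 773, 975.4 and 722 CPM against 64.2 CPM (log2 fold change 3.81). *TFEC*, a transcription factor of the MITF family, stood at 1992, 1878 and 1603 CPM against 149.8 CPM (log2 fold change 3.73). The rise of *TFEC* was not a matter of OPC alone, since it was also called in each of the other 6 cell types, with log2 fold changes between 3.09 and 3.89. *CALR* (calreticulin), a chaperone of the endoplasmic reticulum that helps to load MHC class I, stood at 222, 367 and 273 CPM against 26.8 CPM. Smaller rises were also called, among them those of the transcriptional repressor *ZBTB20*, which was abundant in control OPC, at 2576, 2540 and 2422 CPM against 1300 CPM and of the secreted chaperone *CLU* at 290, 436 and 385 CPM against 85.6 CPM.

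For 17 of the 68 genes called higher no UMI was seen in control OPC, and the fold is then a bound against 3 control UMIs (16.05 CPM). The calcium-binding protein *S100A6* stood at 318, 317 and 282 CPM in the injured libraries, at least 18.9-fold higher than that bound. *TNC* stood at 333, 256 and 308 CPM, at least 18.7-fold higher, and the intermediate filament *VIM* (vimentin) at 297, 244 and 214 CPM, at least 15.5-fold higher. The secreted guidance molecule *SEMA3C* stood at 188, 155 and 231 CPM, at least 12.2-fold higher. In all 4 genes the lowest injured library was far above what 3 control UMIs would give. The rise of *S100A6* was also seen outside OPC. In the other 6 cell types it stood at 0 to 1.16 CPM in control, against injured means of 26.1 to 483 CPM. A further 13 genes called higher had 1 to 3 control UMIs. The zinc finger transcription factor *GLIS3*, chosen after its values were seen, stood at 814, 588 and 833 CPM with 2 control UMIs, a ratio of 70.6 (exact 95% counting interval 19.5 to 583). *B2M* stood at 2855, 4251 and 1822 CPM with 1 control UMI, a ratio of 534 whose counting interval began at 95.8. The rise of *B2M* was not a matter of OPC alone. In the other 6 cell types it stood at 5.51 to 98.0 CPM in control, against injured means of 815 to 10175 CPM. Control microglia held 1 UMI of *B2M*.

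Genes called lower had UMIs in all libraries. The 8 largest fitted falls were of *ADAMTS3*, *IGFBP5*, *CMTM8*, *CABLES1*, *OLFM2*, *TRIM32*, *PDE9A* and *TGFA*. *IGFBP5* stood at 37.1, 39.96 and 52.5 CPM in injured OPC and at 273 CPM in control OPC (log2 fold change -2.52 ± 0.29 SE, edgeR Benjamini-Hochberg adjusted p = 0.0195). *CABLES1* stood at 113, 119 and 157 CPM against 642 CPM (log2 fold change -2.18 ± 0.24 SE, edgeR adjusted p = 0.0183). In both genes the injured values lay close together and well under the control value. *IGFBP5* was also called lower in endothelial nuclei (log2 fold change -2.19). *CABLES1* was also called lower in astrocytes, endothelial nuclei and microglia (log2 fold change -1.83, -1.03 and -1.94). *ADAMTS3*, a protease that processes procollagen, stood at 24.7, 11.8 and 16.5 CPM against 134 CPM, and *TGFA*, a ligand of the epidermal growth factor receptor, at 22.2, 32.8 and 28.2 CPM against 134 CPM. *PDE9A*, which breaks down cyclic GMP, stood at 32.1, 36.7 and 39.9 CPM against 176.6 CPM. The most abundant genes to fall, also chosen after their values were seen, were those of the clathrin adaptors *HIP1*, at 886, 814 and 1052 CPM against 3312 CPM (log2 fold change -1.72), and *EPN2*, at 823, 1197 and 1017 CPM against 3483 CPM (log2 fold change -1.65).

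**Figure D2:**
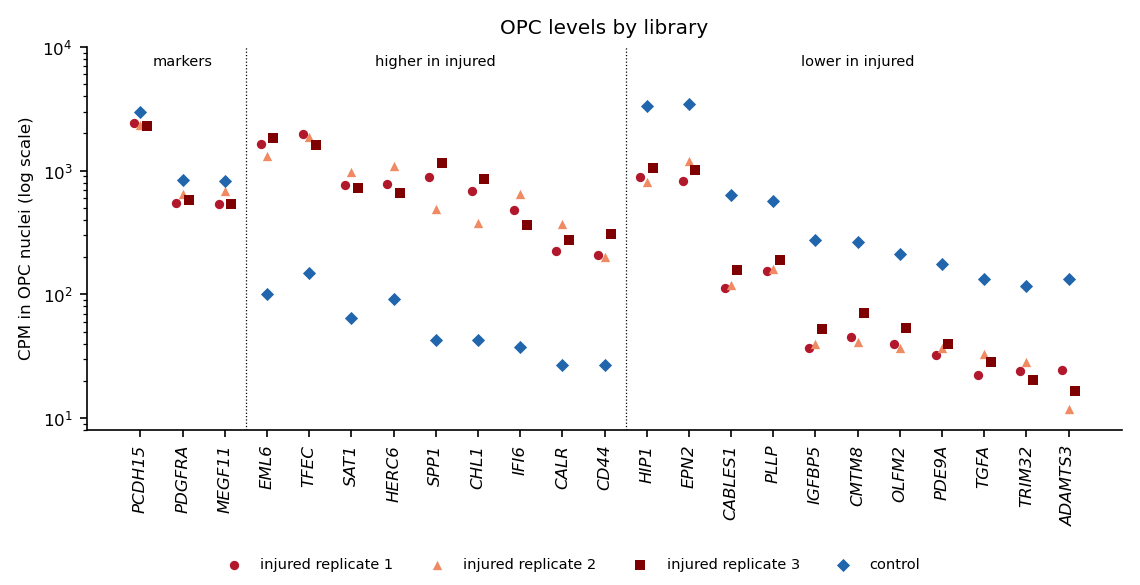
Levels in OPC nuclei of each library, in CPM on a log axis, for the 3 OPC markers, 9 genes called higher and 11 called lower. The 3 injured libraries lie on the same side of control (blue diamonds) in every called gene shown, for example *EML6* at 1314 to 1833 against 101.7 CPM. The rule for the largest rises and falls required this, and it held in all 101 called genes. *PCDH15* at 2289 to 2419 against 2969 CPM was not called.

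Deeper nuclei are more likely to hold a UMI of any gene, so shares of nuclei were also taken after each nucleus was thinned at random to 1000 UMIs, which left out 5, 18 and 11 injured and 91 control OPC nuclei. *EML6* was then found in 57.7% ± 6.33 (SD, n = 3) of injured OPC nuclei and in 8.75% of control OPC nuclei, against 79.3% and 9.94% unthinned. *EML6* is also a transcript of other cells, found at the same depth in 10.5% of injured microglia and 54.4% of injured excitatory neurons, beside 13.5% and 56.9% in control. *SPP1* was found in 34.4% ± 10.1 and 2.50%, and *CHL1* in 31.2% ± 12.3 and 1.25%. *SPP1* was also found in 15.001% of injured microglia and 5.94% of injured excitatory neurons at this depth, and it was called higher in 3 other cell types, both neuron classes and oligodendrocytes. *GLIS3* was found in 27.7% ± 7.06 and 1.25%, and *TNC* in 17.3% ± 4.19 and in none of 80 control nuclei, which by the limit of 3 counts allows a share of up to 3.75%. The same shares in injured nuclei that served as background, microglia and excitatory neurons, were 1.08% and 3.06% for *CHL1*, 2.37% and 1.65% for *GLIS3* and 0.692% and 0.536% for *TNC*. For these 3 genes the OPC share thus lay far above that of these 2 cell types, which hold little of the transcript. For *TFEC* it did not, with 82.3% ± 2.20 of injured OPC nuclei beside 79.0% of microglia and 77.7% of excitatory neurons. Astrocytes also held *CHL1*, *GLIS3* and *TNC*, at injured means of 490, 1736 and 136 CPM beside 642, 745 and 299 CPM in OPC. Control astrocytes stood at 179, 859 and 4.62 CPM. *CABLES1* was found in 12.7% ± 2.76 of injured and 41.3% of control OPC nuclei at equal depth, although the unthinned shares were 34.6% and 40.4%. Of 25 genes examined in this way, 22 had a control interval that did not meet that of any injured library, and 19 at 500 UMIs. Over all 11470 genes these shares were 1.73% and 1.18%, but most of the 25 were picked because they differed between the cohorts, so nothing is read from their count.

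The list of OPC identity genes held no call among its 16 tested members, with a median log2 fold change of -0.10 that became 0.31 in nuclei with at most 2500 genes. *PTPRZ1*, the receptor phosphatase that carries phosphacan, stood at 4176, 4091 and 4524 CPM against 3761 CPM, and *LUZP2* at 3960, 3871 and 3635 CPM against 2156 CPM (log2 fold change 0.95, edgeR Benjamini-Hochberg adjusted p = 0.0571). The lineage factor *SOX10* stood at 77.2, 112 and 81.7 CPM against 225 CPM (log2 fold change -1.19, edgeR adjusted p = 0.104). Summed over the list, the level was 17886, 18788 and 17369 CPM in injured and 17040 CPM in control OPC. Of 19 growth factor receptors tested none was called, among them *PDGFRA* (log2 fold change -0.39 ± 0.20 SE), *FGFR1* at 235, 289 and 280 CPM against 498 CPM, and the receptor tyrosine kinase *MET* at 61.8, 98.9 and 67.1 CPM with no control UMI.

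Genes of differentiation and myelin gave 1 call, beside 0.881% of all genes tested. Of 13 differentiation genes none was called, and the early oligodendrocyte gene *BCAS1* stood at 1056, 1942 and 921 CPM against 1225 CPM, so the control value lay within the injured range. Of 13 myelin genes, *PLLP* (plasmolipin), a membrane protein of myelin, was called lower at 154, 160 and 189 CPM against 567 CPM (log2 fold change -1.63 ± 0.22 SE, edgeR Benjamini-Hochberg adjusted p = 0.0291). *MBP* stood at 81.5, 174 and 73.4 CPM against 149.8 CPM. Oligodendrocyte markers summed to 603, 727 and 528 CPM in injured and 530 CPM in control OPC.

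Proliferation genes were sparse and none of 19 was called. *TOP2A*, which untangles DNA in dividing cells, stood at 82.2, 24.9 and 70.0 CPM with no control UMI, at least 3.77-fold higher over the injured libraries together, and *MKI67* at 12.4, 9.17 and 11.7 CPM with no control UMI. The injured level of *MKI67* lay under the 16.05 CPM that 3 control UMIs stand for, and a difference was not detectable at this depth. Among 30 genes of Notch, BMP and Wnt signalling none was called, with a median log2 fold change of 0.65. The BMP-induced repressor *ID3* stood at 145, 80.6 and 80.2 CPM with no control UMI.

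Of 26 matrix genes tested, *TNC* and the hyaluronan receptor *CD44* were called higher and none lower, beside 0.593% and 0.288% of all genes tested. The list median was 0.16. It became -0.14 with the 3 genes without a control UMI set at their bound and -0.03 after thinning. *CD44* stood at 207, 201 and 307 CPM against 26.8 CPM (log2 fold change 3.28 ± 0.53 SE, edgeR Benjamini-Hochberg adjusted p = 0.0452). Its log2 fold change was 4.60 in astrocytes and 3.65 in oligodendrocytes. The proteoglycan core protein *VCAN* (versican) stood at 1434, 1379 and 961 CPM against 1198 CPM, and *XYLT1*, which starts glycosaminoglycan chains, at 1581, 2028 and 1564.6 CPM against 4157 CPM (log2 fold change -1.14, edgeR adjusted p = 0.0511). Among 56 genes of adhesion and guidance, *SEMA3C* and the cadherin *CDH2* were called higher, again beside 0.593% of all genes tested. *CDH2* stood at 545, 551 and 662 CPM against 230 CPM.

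None of 31 transmitter receptor genes was called (median log2 fold change -0.33), with the AMPA receptor subunit *GRIA2* at 1325, 1407 and 1205 CPM against 1439 CPM. Of 26 ion channel genes, the sodium channel *SCN1A* was called lower, beside 0.288% of all genes tested. It stood at 143, 149 and 136 CPM against 391 CPM (log2 fold change -1.33, beside -1.25 in astrocytes and -1.22 in oligodendrocytes). In 18 of the 26 the control value lay above all 3 injured values, beside 39.8% of all genes tested. The list median was -0.73. It became -0.35 after thinning to 1000 UMIs and -0.41 in nuclei with at most 2500 genes, where no member was called. *KCNIP4*, a channel-interacting protein, stood at 153, 158 and 106 CPM against 423 CPM (log2 fold change -1.48, edgeR Benjamini-Hochberg adjusted p = 0.0557).

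Genes linked to glial injury held the most calls. Of 30 tested, 11 were called higher and none lower, beside 0.593% and 0.288% of all genes tested. The 11 were *SPP1*, *SAT1*, *CD44*, *VIM*, *S100A6*, *ANXA2*, *TIMP1*, *KLF6*, *LGALS3* and the tetraspanins *CD63* and *CD81*. The list was drawn up with earlier results of these data known, so its direction is not independent evidence. In 29 of the 30 all injured values lay above control, beside 41.6% of all genes tested, and the summed level was 5519, 5189 and 5940 CPM against 503 CPM. The median log2 fold change was 7.40 (fitted), or 2.42 with the 17 genes that had no control UMI set at their bound. No injured value of these 17 could lie below control. The annexin *ANXA2* stood at 168, 175 and 173 CPM with 1 control UMI, a ratio of 32.2 (exact counting interval from 5.76). The metalloproteinase inhibitor *TIMP1* stood at 177, 168 and 98.7 CPM, and the transcription factor *KLF6* at 125, 118 and 117 CPM, both with no control UMI. The filament gene *GFAP*, best known from astrocytes, stood at 503, 209 and 580 CPM with no control UMI and missed the threshold (edgeR Benjamini-Hochberg adjusted p = 0.0504). *GAP43*, a protein of growing processes, stood at 314, 147 and 458 CPM with no control UMI and was not called either (edgeR adjusted p = 0.0636). In both genes injured replicate 2 was the lowest of the injured libraries.

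Markers of other cell types were counted in the same OPC sums. The 7 astrocyte markers summed to 1321, 855 and 1379 CPM in injured and 1091 CPM in control OPC, with *GFAP* and *SLC1A2* holding most of it. The sum hides opposite changes, since the log2 fold change was above 0 in 6 of the 7, beside 56.9% of all genes tested. Its median was 1.61, or 0.37 with the 3 markers without a control UMI set at their bound. Among the defining astrocyte genes, *AQP4* stood at 11.1, 9.17 and 16.04 CPM and *GJA1* at 11.1, 10.5 and 21.4 CPM, both with no control UMI. The glutamate transporter *SLC1A2* was called lower, at 326, 362 and 356 CPM against 942 CPM (log2 fold change -1.31). Its log2 fold change was -1.45 in astrocytes and -1.58 in oligodendrocytes. The 7 microglia markers summed to 350, 307 and 217 CPM against 150 CPM, with *CD74* called higher, *CX3CR1* at 0.486 to 0.655 CPM and *P2RY12* at 17.3, 21.6 and 18.5 CPM against 10.7 CPM. Endothelial, excitatory neuron and inhibitory neuron markers summed to 79.7 to 117, 859 to 1070 and 230 to 254 CPM in injured and 85.6, 776 and 300 CPM in control OPC. When nuclei with a UMI of a microglia marker, *AQP4*, *GJA1* or *ALDH1L1* were left out, a check added after the data were seen, 110 of 7889 genes were called, 71 of them among the 101. The microglia markers included *CD74*, which was itself called and was found in 51.5% of injured and in 0% of control OPC nuclei. The step thus left out injured nuclei unevenly and cannot separate foreign transcripts from a rise in OPC.

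**Figure D3:**
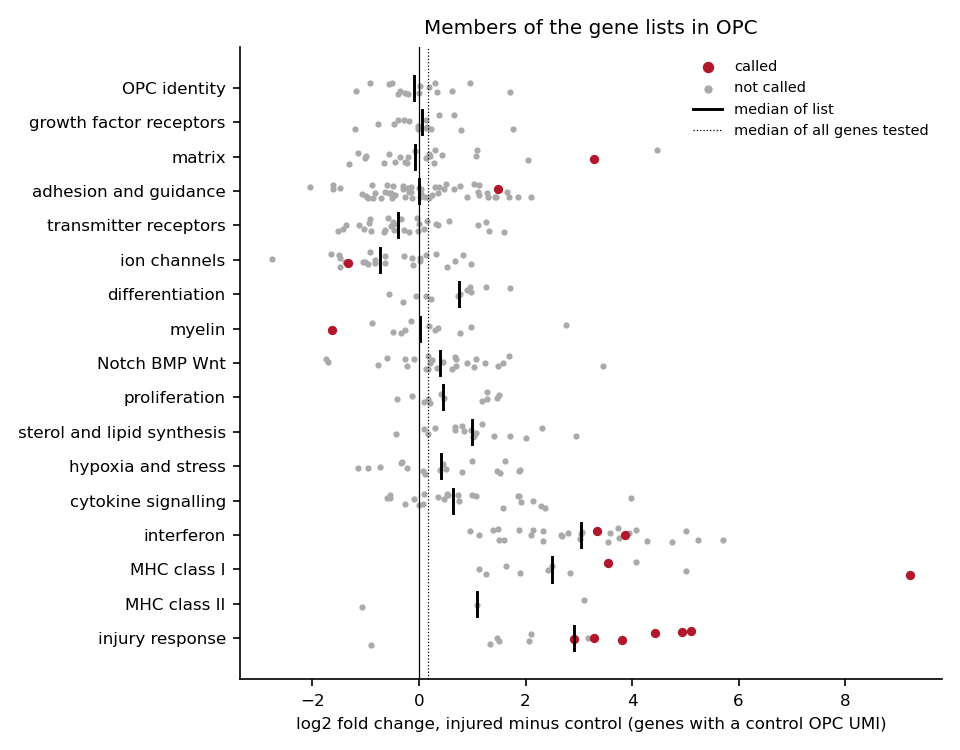
Log2 fold change (injured minus control) of each tested list member with at least 1 control OPC UMI, by list, with called genes in red, the list median as a black bar and the median of all genes tested as a dotted line at 0.17. Interferon, MHC class I and injury response genes lie to the right, and OPC identity, matrix and adhesion genes spread around 0.

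Of 39 interferon response genes tested 2 were called higher, beside 0.593% of all genes tested. The log2 fold change was above 0 in all 39, also when scaled by library size alone, beside 56.9% of all genes tested. For the 9 genes without a control UMI the sign could only be positive. This list, too, was drawn up with earlier results of these data known, so its direction is not independent evidence. *HERC6*, of a family of ubiquitin-like ligases, stood at 778, 1094 and 661 CPM against 91.0 CPM (log2 fold change 3.34 ± 0.42 SE, edgeR Benjamini-Hochberg adjusted p = 0.0239). *IFI6*, an interferon-induced membrane protein, stood at 482, 651 and 364 CPM against 37.4 CPM (log2 fold change 3.86 ± 0.52 SE, edgeR adjusted p = 0.0291). Neither rise was a matter of OPC alone. In the other cell types *HERC6* stood at 7.31 to 164 CPM in control, against injured means of 260 to 830 CPM. *IFI6* stood there at 8.03 to 49.0 CPM in control, against injured means of 165 to 502 CPM. The list median was 3.59, or 3.02 with the 9 genes without a control UMI set at their bound. In 36 of 39 all injured values lay above control, beside 41.6% of all genes tested. The RNA helicase *DDX60* was the most abundant member, at 1531, 4048 and 1128 CPM against 203 CPM, and was not called (log2 fold change 3.59 ± 0.83 SE, edgeR adjusted p = 0.086). *MX1*, an antiviral GTPase, stood at 545, 1490 and 355 CPM against 26.8 CPM, and was not called. All the injured values of both genes lay above control, with a wide spread among the animals.

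Of 15 MHC class I genes, *B2M* and *CALR* were called higher, beside 0.593% of all genes tested. The control value lay below all 3 injured values in each of the 15, again beside 41.6% of all genes. For the 4 genes without a control UMI no injured value could lie below control. The list median was 3.55, or 1.90 with these 4 set at their bound. The peptide transporter *TAP1* stood at 100, 315 and 71.5 CPM against 5.35 CPM and was not called. Of 6 MHC class II genes, *CD74* (the invariant chain) was called higher, at 211, 205 and 115 CPM with no control UMI and at least 10.7-fold higher. *CIITA*, the class II transactivator, stood at 79.7, 214 and 42.8 CPM with no control UMI. *CD74* was abundant in injured microglia, where 57.4% of nuclei thinned to 1000 UMIs had a UMI. The share was 19.0% ± 4.93 of injured OPC nuclei and 11.5% of injured excitatory neurons. Control microglia held 1 UMI of *CD74* (8.03 CPM). In the other 6 cell types *CD74* stood at 1.16 to 8.03 CPM in control, against injured means of 117 to 1213 CPM. None of 33 cytokine signalling genes was called, with *JAK2* at 146, 179 and 160 CPM against 48.1 CPM and *STAT3* at 78.5, 111 and 101 CPM against 21.4 CPM. None of 22 sterol and lipid synthesis genes and none of 21 hypoxia and stress genes was called, with medians of 1.06 and 0.50.

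Lists without a call by edgeR also held genes at an unadjusted edgeR p below 0.05 or called by DESeq2. Over all 11470 genes tested these numbered 2273 and 228. OPC identity held 4 and 0 of 16, differentiation 2 and 0 of 13 and proliferation 4 and 0 of 19, in that order. Growth factor receptors held 4 and 1 of 19, and Notch, BMP and Wnt genes 10 and 1 of 30. Transmitter receptors held 8 and 2 of 31, and cytokine signalling genes 12 and 1 of 33. Sterol and lipid synthesis genes held 8 and 0 of 22, and hypoxia and stress genes 2 and 1 of 21. No list was tested as a set, so no excess is read from these counts. Of the 39 interferon genes, with 2 calls by edgeR, DESeq2 called 15, beside 228 of 11470.

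The injured animals were then compared with each other, a comparison that does not involve the control library. Over 7610 genes with at least 100 injured OPC UMIs, and 10 or more in the lowest library, the highest library exceeded the lowest by a median of 1.30 times, and by more than 2 times in 502 genes (6.60%). Injured replicate 2 was the highest in 266 of the 502. The widest gap was in *IDO1*, the enzyme that degrades tryptophan to kynurenine, at 84.6 CPM in injured replicate 1, 701 CPM in injured replicate 2 and 5.35 CPM in injured replicate 3, a ratio of 131. The exact Poisson 95% intervals of these 3 values, 71.1 to 100.0, 660 to 744 and 2.67 to 9.57 CPM, did not meet. *WARS*, the tryptophanyl-tRNA synthetase that interferon gamma induces, stood at 284, 1482 and 188 CPM, a ratio of 7.89. *CD274*, the checkpoint ligand PD-L1, stood at 12.4, 63.5 and 5.83 CPM, a ratio of 10.9, beside 16.05 CPM in control OPC. The RNA-sensing enzyme *OAS1* stood at 26.6, 89.7 and 10.7 CPM. Also among the 6 highest ratios were 2 genes without a symbol.

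Injured replicate 2 was the highest in all 38 interferon list members with at least 30 injured OPC UMIs, and injured replicate 3 the lowest in 35 of them. The list summed to 8409, 19560 and 6391 CPM in injured replicates 1, 2 and 3 and to 1220 CPM in control. By contrast, the OPC markers *PDGFRA* and *PCDH15* differed by ratios of 1.20 and 1.06 among the injured libraries, *S100A6* by 1.12 and *TFEC* by 1.24. *IDO1* was also highest in injured replicate 2 in each of the other 6 cell types, for example at 687 CPM in microglia beside 86.2 and 64.9 CPM. Within injured replicate 3 *IDO1* was lower in OPC, at 5.35 CPM, than in microglia or astrocytes, at 64.9 and 65.7 CPM. Injured replicate 2 also had the shallowest injured OPC nuclei, and the part of depth in these ratios was not tested.

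**Figure D4:**
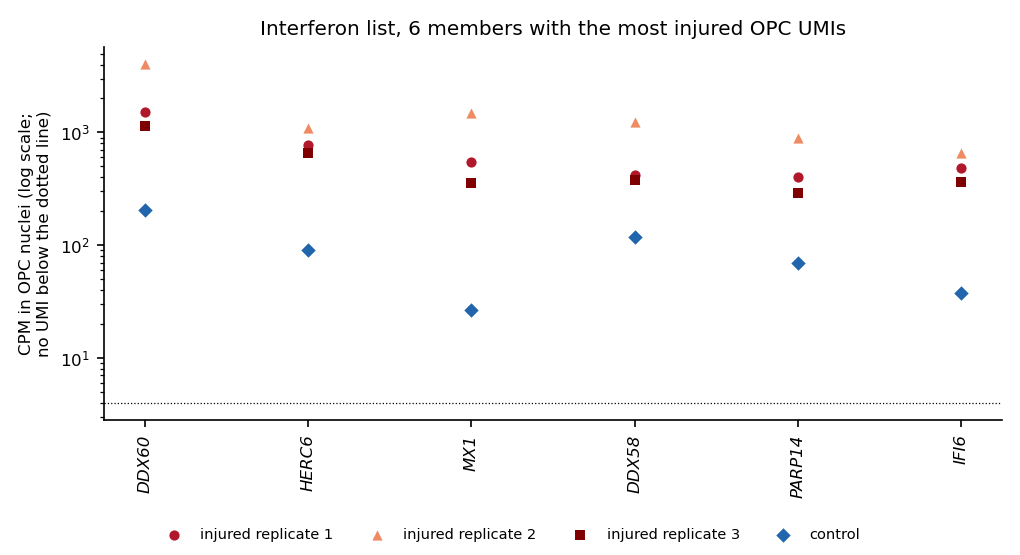
Levels of the 6 interferon list members with the most injured OPC UMIs, in CPM on a log axis, 1 point per library. Injured replicate 2 (orange triangles) is the highest in all 6, with *DDX60* at 4048 beside 1531 and 1128 CPM in the other injured libraries, and all 3 injured libraries lie above control.

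Within each injured library, OPC nuclei also differed from one another. The gene used to divide them, *BCAS1*, and the genes compared were chosen after the values were seen, and the shares are given as a description without a test. After thinning to 1000 UMIs, a *BCAS1* UMI was found in 128 of 279, 252 of 433 and 164 of 390 nuclei of injured replicates 1, 2 and 3. *GLIS3* was found in 18.0%, 6.35% and 11.6% of nuclei with a *BCAS1* UMI and in 47.7%, 39.2% and 41.6% of nuclei without one. *CD44* was found in 6.25%, 3.97% and 6.10% of those with and 22.5%, 23.8% and 29.2% of those without, and *TNC* in 11.7%, 2.78% and 10.4% against 26.5%, 25.97% and 26.5%. *GFAP* and *CHL1* showed the same order. For these 5 of 19 genes the exact 95% intervals were apart in all 3 animals, and at 500 UMIs this held for 1 of 19, *GLIS3*. Over all other genes tested, intervals were apart in all 3 animals for 0.724% at 1000 UMIs and for 0.244% at 500 UMIs, and the 19 were picked after their values were seen.

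For *VIM*, *S100A6* and *SPOCK1* the intervals were apart in 2 of the 3 injured libraries, and for *EML6* and *SPP1* in 1. *TFEC* was found in 84.4%, 82.9% and 78.0% of nuclei with and 82.8%, 84.5% and 81.0% of nuclei without a *BCAS1* UMI. For *DDX60* the shares were 64.1%, 89.3% and 56.1% with and 69.5%, 90.1% and 56.6% without. The intervals of *TFEC*, *DDX60*, *HERC6*, *IFI6* and *B2M* overlapped in every injured library. *PDGFRA* was found more often with a *BCAS1* UMI, in 52.3%, 48.4% and 52.4% against 30.5%, 37.6% and 34.96%. At 500 UMIs the *PDGFRA* shares were 23.2%, 29.8% and 28.7% against 21.1%, 28.4% and 20.5%, with overlapping intervals in all 3 libraries. A UMI of *AQP4*, *GJA1* or *ALDH1L1*, the astrocyte genes, was found in 2.34%, 3.17% and 3.05% of nuclei with and 3.31%, 2.76% and 3.98% of nuclei without. In control OPC 50 of 80 thinned nuclei had a *BCAS1* UMI, and *GLIS3*, *TNC* and *GFAP* were found in 1, 0 and 0 of all 80.

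**Figure D5:**
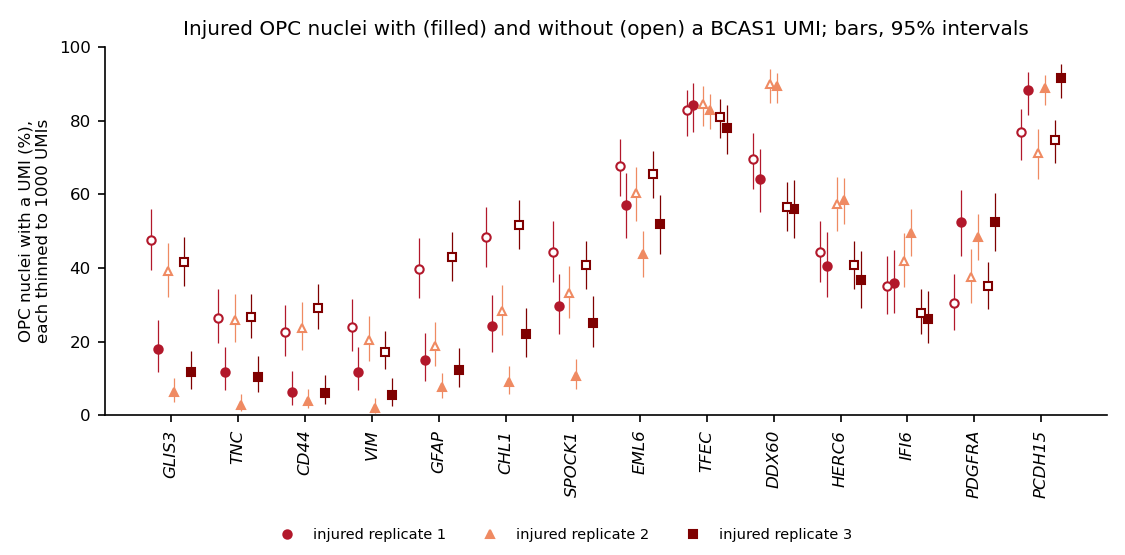
Percent of injured OPC nuclei, each thinned to 1000 UMIs, with a UMI of the named gene, split into nuclei with (filled) and without (open) a *BCAS1* UMI, 1 symbol per animal, with exact 95% intervals that cover counting error only. Open symbols are higher for *GLIS3*, *TNC*, *CD44*, *VIM*, *GFAP*, *CHL1*, *SPOCK1* and *EML6*, filled ones for *PDGFRA* and *PCDH15*, and both lie close together for *TFEC*, *DDX60*, *HERC6* and *IFI6*.

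To ask which injury effects differed from those in related glia, the effect in OPC was tested against that in mature oligodendrocytes and in astrocytes, as the interaction of cell type and cohort with library as a block. These tests share the libraries of the comparison above. Against oligodendrocytes, 50 of 12122 genes differed (0.412%), 31 with the higher signed log2 fold change in OPC (0.256%) and 19 with the lower (0.157%). Against astrocytes, 28 of 12483 genes differed (0.224%), 13 higher in OPC (0.104%) and 15 lower (0.120%). *EML6* differed from both. It stood at 189, 208 and 177 CPM in injured and 191 CPM in control oligodendrocytes, and at 795, 723 and 908 CPM in injured and 918 CPM in control astrocytes. The difference in log2 fold change was 3.97 ± 0.38 SE against oligodendrocytes and 4.17 ± 0.30 SE against astrocytes (edgeR Benjamini-Hochberg adjusted p below 0.05 in both).

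Further genes with a higher log2 fold change in OPC were the proteoglycan *SPOCK1* (testican) and *GALNT17*, a glycosyltransferase family member. *SPOCK1* stood at 716, 447 and 670 CPM against 144 CPM in OPC and 109, 138 and 85.3 CPM against 230 CPM in oligodendrocytes. *GALNT17* stood at 77.8, 101 and 80.2 CPM against 26.8 CPM in OPC and 76.2, 135 and 111 CPM against 350 CPM in oligodendrocytes. Both also differed from astrocytes. *EML6* and *SPOCK1* were called higher in endothelial nuclei as well (log2 fold change 2.27 and 1.21), and the difference between OPC and endothelial nuclei was not tested. *MN1*, a transcriptional regulator, and *SMAD3*, a transducer of TGF-beta signals, differed from oligodendrocytes by 4.28 ± 0.72 and 3.13 ± 0.50 SE on the log2 scale. Part of each difference was a fall in oligodendrocytes, with log2 fold changes of -2.60 and -1.05 there beside 1.74 and 2.12 in OPC. *MN1* stood at 84.01, 51.7 and 109 CPM against 26.75 CPM in OPC. In oligodendrocytes it was sparse, at 2.20, 0.916 and 1.79 CPM against 10.96 CPM. *MN1*, *SMAD3* and *GALNT17* were not called in OPC. The septin *SEPT10* differed from astrocytes, at 218, 244 and 238 CPM against 53.5 CPM in OPC and 70.8, 77.2 and 81.9 CPM against 84.4 CPM in astrocytes. *RFWD2* also differed from astrocytes, at 382, 286 and 334 CPM against 230 CPM in OPC and 759, 715 and 627 CPM against 2352 CPM in astrocytes, so that the injured values lay above control in OPC and below it in astrocytes.

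In the other direction *IGFBP5* differed from both cell types, by -3.18 ± 0.51 SE against oligodendrocytes and -4.12 ± 0.43 SE against astrocytes. In astrocytes it stood at 67.0, 54.5 and 55.7 CPM against 20.8 CPM. *IGFBP5* was also called lower in endothelial nuclei (log2 fold change -2.19), and the difference between OPC and endothelial nuclei was not tested. *VCAN*, at a similar level in OPC of both cohorts, stood at 77.8, 116 and 67.8 CPM in injured and 5.78 CPM in control astrocytes, a difference of -3.80 ± 0.49 SE. The collagen *COL11A1* stood at 333, 276 and 307 CPM against 203 CPM in OPC and at 131, 128 and 103 CPM against 8.61 CPM in oligodendrocytes, a difference of -3.19 ± 0.44 SE. Without the library block 3 genes differed from oligodendrocytes and 5 from astrocytes, and without injured replicate 2 these were 290 and 299 with the block.

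The same fit in the other cell types placed the called OPC genes. Of 68 genes called higher in OPC, 59 were also called higher in at least 1 of the other 6 cell types and 10 in all 6, with 47 in astrocytes and 31 in oligodendrocytes. Of 33 called lower, 24 were called lower in at least 1 other type, 19 of them in astrocytes, and 0 in all 6. The share of all genes called in each of those cell types is not given here, so no excess is read from these counts. The fits share libraries, and cell types differ in depth and number of nuclei, so a gene called in OPC alone is not shown to differ from the others. Genes called higher in no other type included *EFEMP1*, a matrix glycoprotein, at 164, 130 and 209 CPM with no control UMI, and *SEMA3C*. *SEMA3C* also stood at 31.4, 29.2 and 45.3 CPM in injured and 1.16 CPM in control astrocytes. Its injury effect differed past the threshold from that in oligodendrocytes and not from that in astrocytes. For *EFEMP1* the effect differed from that in astrocytes and not from that in oligodendrocytes.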

How the data were processed

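Single-nuclei libraries of 3 injured animals and 1 control pool were made with 10x Genomics 3' v3 chemistry. The authors counted UMIs with Cell Ranger 3.1.0 on calJac3 with an Ensembl annotation, took out doublets by Scrublet in the injured nuclei, filtered control nuclei in Seurat, and deposited unnormalized UMI counts for each nucleus together with its cell type. No doublet caller was run here. Counts of OPC nuclei were summed per library. Of 16383 genes listed for both cohorts, those with a UMI in each cohort and past filterByExpr were fitted with edgeR 4.0.16 in R 4.3.3 (TMM, glmQLFit, glmQLFTest, Benjamini-Hochberg adjustment). The spread came from the 3 injured sums and was assumed for the control sum. CPM scales each sum to 1000000 UMIs over these genes, and levels are not corrected for gene length. DESeq2 1.42.0 was an alternative. Steps were tested on simulated counts. Intervals are exact at 95%, limits for a count of 0 are set at 3 counts, and both cover counting error only. Replicates were numbered in accession order. Of 9819 genes listed by Ensembl identifier, 1173 were given a symbol from a gene name table. The 1877 genes with injured OPC UMIs that are not listed for control stayed out of the tests (0.320% of injured OPC UMIs).

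The rule for named genes took the markers, called and most abundant list members, the 8 largest rises and falls with more than 3 UMIs in the lower cohort, the 3 largest bounds, the 6 largest ratios among injured libraries and the 5 largest differences in each direction per interaction. The OPC nuclei and gene lists were chosen with earlier results of these data known. Results for 2 genes are not reported here.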

Additional observations from a re-analysis of the deposited data

Results flagged for a closer look

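The injury effect differed between OPC and another cell type by a test of the difference itself, the interaction term of edgeR with Benjamini-Hochberg adjustment, for 50 genes against oligodendrocytes and 28 against astrocytes. Among genes with more than 3 UMIs in each sum, 5 had the most positive differences from oligodendrocytes. They were *MN1* (difference 4.28), *EML6* (3.97), *GALNT17* (3.43), *SPOCK1* (3.14) and *SMAD3* (3.13). Those with the most negative differences were *COL11A1* (-3.19), *IGFBP5* (-3.18), *APBB1IP* (-2.82), *WSCD1* (-2.60) and *SOX13* (-2.13). The sign gives direction and not size, since *IGFBP5* had log2 fold changes of -2.52 in OPC and 0.63 in oligodendrocytes. Those of *MN1* were 1.74 in OPC, where it was not called, and -2.60 in oligodendrocytes, where it was sparse. Against astrocytes the signed log2 fold change was higher in OPC for *EML6* (4.17), *GALNT17* (2.72), *RFWD2* (2.30), *SEPT10* (2.28) and *SPOCK1* (2.24). It was lower for *IGFBP5* (-4.12), *AMOTL2* (-4.01), *VCAN* (-3.80), *PLXNC1* (-3.30) and *KCNN3* (-3.19).

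Genes with OPC UMIs in the injured table that are not listed for control could not enter any comparison. The most abundant with a symbol were the interferon-induced GTPase *GBP1* with 939 UMIs, the chemokines *CXCL10* with 434 and *CXCL11* with 207, *CCDC85B* with 192, the complement gene *C1QC* with 177 and the antiviral membrane protein *BST2* with 169. *GBP1* stood at 122, 392 and 67.9 CPM in injured replicates 1, 2 and 3, and *CXCL10* at 25.9, 215 and 30.1 CPM. All 6 are above the limit of 3 UMIs, and no control value exists for them here.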

How the results depend on the processing

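The number of called OPC genes ranged from 0 to 1199 when 1 injured library was left out, and was 228 with DESeq2, 263 without the filter on low counts, 5 at an adjusted p below 0.01 and 178 after thinning to 1000 UMIs, of which 75 were among the 101. Among members of the gene lists the calls ranged from 0 to 132 with 1 library left out, and were 54 with DESeq2, 48 without the filter, 2 at an adjusted p below 0.01, 44 after thinning and 38 in nuclei with at most 2500 genes. All 36 named genes called in OPC kept their direction in 503 of 503 values under these alternatives, and 124 of those values no longer passed the test. The kept direction was nearly fixed in advance and is no check. Every setting reused the 1 control library, and all 3 injured CPM of each called gene lay on the same side of it. Differences from oligodendrocytes ranged from 32 to 290 with 1 library left out, and were 3 without the library block, 268 without the filter and 2 at an adjusted p below 0.01. Differences from astrocytes ranged from 24 to 299, and were 5 without the block, 166 without the filter and 12 at an adjusted p below 0.01. The injured share of OPC exceeded the control share by 1.88 percentage points of all nuclei, by 1.18 among nuclei with at most 2500 genes, and by -0.0385 among glial nuclei. Among nuclei with at most 2500 genes the shares were 2.43%, 4.44% and 3.59% in the injured libraries and 2.31% in control. Injured replicate 1 thus lay close to control in that setting. The cause was not tested. Without the 25 nuclei of cluster 26, a setting added after the data were seen, 77 genes were called, all among the 101.

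The depth of 171 control nuclei limits every comparison with control, and the 3 injured libraries give the only estimate of spread. No paired analysis was possible because the injured and control libraries share no animals and only 1 control library exists.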
